A study of Drosophila melanogaster with 18 samples.

Results

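The genes described here are 10 male germline genes of Drosophila melanogaster, 5 regulators of the spermatocyte programme (aly, can, sa, topi and nht) and 5 genes of sperm differentiation (fzo, Mst87F, Mst98Ca, dj and S-Lap7). They were taken by name and are 10 of the 17411 genes counted. RNA-seq had been carried out on L3 larvae carrying the muscle driver mef2, which drove the kinase NUAK or, as the control, lacZ. The labels name 2 overexpression groups, mef2>NUAK548 and mef2>NUAK550, and leave the numbers unexplained. They call the genotype of both NUAK OE and that of mef2>lacZ control. All 3 genotypes carry the mef2 driver, and each was sequenced in a pair of preparations, the whole larva and the muscle carcass, with 3 libraries in each of the 6 groups. The labels record neither the sex of the larvae nor the age within L3, nor whether libraries came from separate crosses, so p-values measure the spread between these libraries, which may be technical.

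In the testis of a male larva, spermatogonia divide and then enter a long growth phase as spermatocytes, when they switch on most of the genes that meiosis and sperm building will need. That switch depends on the meiotic arrest genes, so called because mutant testes stop with spermatocytes that neither divide nor differentiate. aly and topi belong to the testis meiotic arrest complex (tMAC), in which topi is a zinc-finger DNA-binding protein. can, sa and nht encode testis versions of TFIID subunits (tTAFs), related to the broadly used Taf5, Taf8 and Taf4. The differentiation genes act later. fzo encodes a mitofusin that fuses spermatid mitochondria, Mst87F and Mst98Ca encode cysteine-rich repeat proteins of the sperm tail, dj (don juan) encodes a sperm tail protein, and S-Lap7 belongs to the sperm leucyl-aminopeptidase family.

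All 10 genes had the same span in the deposited files, which use BDGP6, and in the reference annotation. The regulators are aly (FBgn0004372, chromosome 3L, 3024129 to 3026521), can (FBgn0011569, 3L, 10263909 to 10267111), sa (FBgn0002842, 3L, 21405425 to 21406738), topi (FBgn0037751, 3R, 9775121 to 9777943) and nht (FBgn0041103, 2L, 15317954 to 15318901). The differentiation genes are fzo (FBgn0011596, 3R, 23201644 to 23204034), Mst87F (FBgn0002862, 3R, 13827151 to 13828008), Mst98Ca (FBgn0002865, 3R, 28291338 to 28292656), dj (FBgn0019828, 3R, 7059315 to 7060524) and S-Lap7 (FBgn0033868, 2R, 13778124 to 13780245). The genes fzo, sa and S-Lap7 lie inside introns of cnc, rgn and Cpr50Ca, with fzo on the same strand as its host and the others on the opposite strand. Mst87F shares 41 exon bases, 6.58% of its exon length, with lncRNA:CR43300 on the other strand, and Mst98Ca has a close paralogue, Mst98Cb. The sources used here do not say whether counting used strand or how reads matching paralogues were treated.

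Library depth ran from 14577914 to 22341807 counted reads. Levels are CPM, counts relative to library size, after scaling by the trimmed mean of M values (TMM) over all 18 libraries, and group values are means ± SD over 3 libraries. Nuak itself, the overexpressed gene, stood at 83.7 ± 24.2 CPM in lacZ whole larvae, 1143 ± 69.7 CPM in NUAK548 and 2214 ± 84.0 CPM in NUAK550, and all 6 NUAK whole libraries lay above all 3 lacZ libraries, NUAK548 library 1 included at 1221 CPM. The carcass libraries carried muscle RNA, with all 8 muscle markers called higher than in whole larvae and all 6 salivary gland and all 6 gut markers called lower (edgeR, lacZ groups). Over all genes, 2789 of 12429 were called higher and 4612 lower. One library stood apart. NUAK548 whole library 1 had the male germline genes at the level of lacZ, whereas libraries 2 and 3 of that group resembled NUAK550, and log2 CPM over genes correlated at 0.933 and 0.932 between library 1 and the other two against 0.989 between those. Why it differs was not tested, and results that rest on it are given with and without it.

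In whole lacZ larvae every gene was measured well above 0. Per kilobase of exon, S-Lap7 was highest at 62.1 ± 9.40 CPM, followed by Mst98Ca at 40.3 ± 4.42, Mst87F at 37.6 ± 12.5, dj at 19.7 ± 4.65 and fzo at 7.81 ± 0.20 CPM per kilobase. The regulators stood below all 5, with sa at 3.86 ± 0.76, nht at 2.82 ± 0.23, topi at 2.69 ± 0.16, can at 1.12 ± 0.09 and aly at 1.12 ± 0.14 CPM per kilobase. In this order the library values of Mst98Ca and Mst87F overlapped, as did those of sa and nht, of nht and topi, and of can and aly. Genes were not compared within libraries, so the order of these neighbours was not tested.

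Among the regulators, aly stood at 2.72, 2.17 and 2.69 CPM in the 3 lacZ whole libraries, at 2.54 CPM in NUAK548 library 1 with 0 counts in libraries 2 and 3, and at 0.0587, 0.0479 and 0 CPM in NUAK550. The NUAK550 reads of aly numbered 2 over the group against 169 in lacZ, a ratio of 81.3 with a 95% counting interval of 22.2 to 677. Its partner in tMAC, topi, was at 6.89, 6.91 and 7.63 CPM in lacZ, at 8.06, 1.16 and 1.01 CPM in NUAK548 and at 0.528, 1.01 and 0.964 CPM in NUAK550. For both genes the NUAK550 libraries lay under every lacZ library, as for 29.3% of genes tested. The NUAK548 group was split between library 1 and libraries 2 and 3.

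The Taf5-related can was at 3.01, 3.33 and 3.55 CPM in lacZ, at 2.65, 0.356 and 0.287 CPM in NUAK548, then at 0, 0.192 and 0.270 CPM in NUAK550. The Taf8-related sa was at 4.25, 2.88 and 3.95 CPM in lacZ, at 3.99, 0.0445 and 0 CPM in NUAK548 and at 0.0587, 0.144 and 0 CPM in NUAK550. The Taf4-related nht was at 2.52, 2.57 and 2.92 CPM in lacZ and at 1.60, 0 and 0.0479 CPM in NUAK548. It had 0 counts in all 3 NUAK550 libraries against 177 counts in lacZ, which allows a NUAK550 level of up to 0.0470 CPM (3 counts over the group) and makes nht at least 56.8-fold higher in lacZ. The 3 tTAF genes thus split as aly and topi did, and can and nht were the only members for which NUAK548 library 1 also lay under all lacZ libraries. Of all genes tested, 7.94% had every NUAK548 library below lacZ. Floors and intervals cover counting error only.

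**Figure D1:**
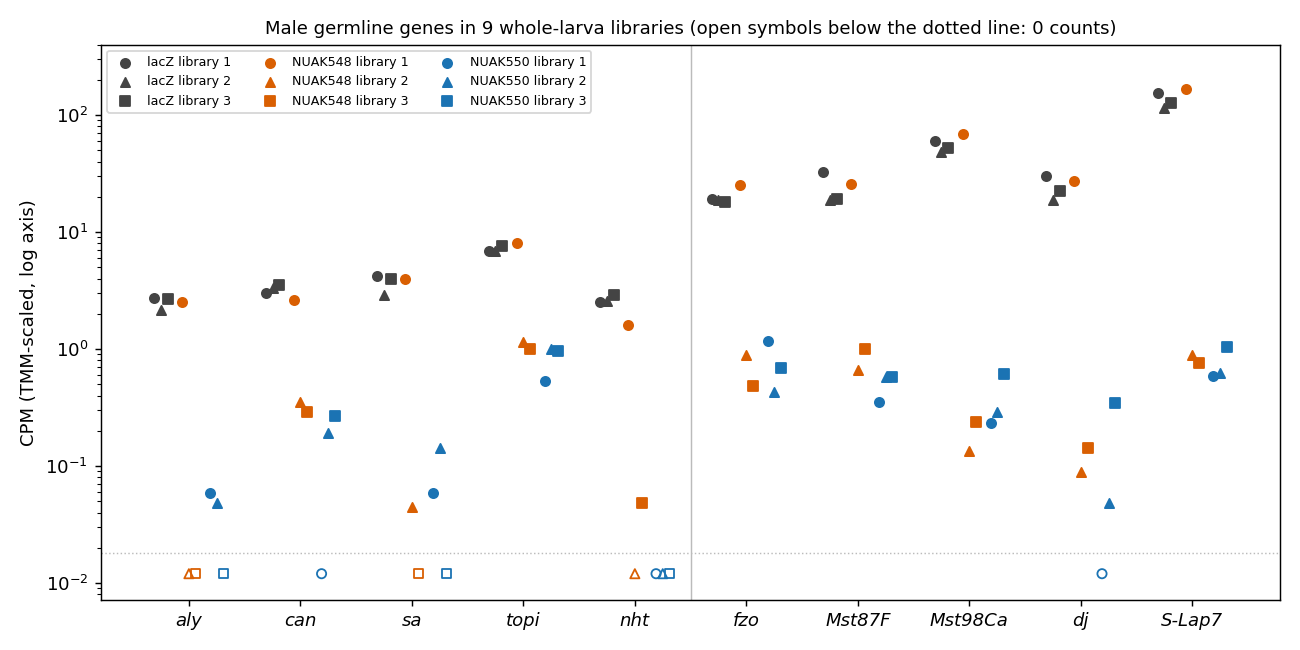
Level of each gene (CPM after TMM scaling, log axis) in the 9 whole-larva libraries, with regulators on the left and differentiation genes on the right. Circles, triangles and squares are libraries 1, 2 and 3 of a group, and open symbols under the dotted line are libraries with 0 counts. For each gene the 3 lacZ libraries and NUAK548 library 1 sit together, above the other 5.

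Among the differentiation genes, the mitofusin fzo was at 19.1, 18.7 and 18.2 CPM in lacZ, at 25.0, 0.889 and 0.479 CPM in NUAK548 and at 1.17, 0.431 and 0.694 CPM in NUAK550. The sperm tail gene Mst87F was at 32.4, 18.7 and 19.3 CPM in lacZ, at 25.8, 0.667 and 1.01 CPM in NUAK548 and at 0.352, 0.575 and 0.578 CPM in NUAK550. For both genes every NUAK550 library lay below lacZ, as for 29.3% of genes tested. For fzo NUAK548 library 1 was above all 3 lacZ libraries. The antisense neighbour of Mst87F, lncRNA:CR43300, had 13 counts in the lacZ whole group, 0 in NUAK548 and 4 in NUAK550.

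Mst98Ca was at 59.4, 48.0 and 51.9 CPM in lacZ, at 68.7, 0.133 and 0.240 CPM in NUAK548 and at 0.235, 0.288 and 0.617 CPM in NUAK550. The sperm tail gene dj was at 30.0, 18.9 and 22.5 CPM in lacZ, at 27.3, 0.0889 and 0.144 CPM in NUAK548 and at 0, 0.0479 and 0.347 CPM in NUAK550. The aminopeptidase gene S-Lap7 was at 153.5, 114 and 128 CPM in lacZ, at 167, 0.889 and 0.767 CPM in NUAK548 and at 0.587, 0.623 and 1.04 CPM in NUAK550. For these genes as well, every NUAK550 library lay below lacZ, beside 29.3% of genes tested. NUAK548 library 1 was within the lacZ range for dj and above it for Mst98Ca and S-Lap7.

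Taken one by one, the 3 NUAK548 whole libraries thus held different amounts of male germline RNA. Library 1 carried 9160 reads on the 10 genes, or 332 CPM, beside 7609, 4687 and 5792 reads (314, 237 and 260 CPM) in lacZ. Its ratio to the lacZ mean had a median of 1.11 and ran from 0.598 for nht to 1.34 for fzo, with 4 genes within the lacZ range, 4 above it and 2 below it. Libraries 2 and 3 carried 95 and 83 reads, or 4.22 and 3.98 CPM, and all 10 genes lay below the lacZ range in both. Their medians were 0.939% and 1.20% of the lacZ mean, and the highest was topi at 16.2% and 14.1%. The NUAK550 libraries carried 51, 70 and 117 reads, or 2.99, 3.36 and 4.51 CPM, with medians of 0.974%, 2.10% and 1.31% of the lacZ mean and with topi again highest, at 7.40%, 14.1% and 13.5%. In bulk RNA, fewer cells of a type and less RNA per cell cannot be told apart.

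The make-up of these reads differed along with their number. As shares of the reads on the 10 genes, not corrected for length, the regulators took 6.18%, 7.55% and 7.98% in the lacZ libraries and 5.67% in NUAK548 library 1. They took 36.8% (95% Wilson interval 27.8 to 46.9) and 33.7% (24.5 to 44.4) in NUAK548 libraries 2 and 3, and 21.6% (12.5 to 34.6), 41.4% (30.6 to 53.1) and 27.4% (20.1 to 36.1) in NUAK550. Most of that share was topi, with 2.20% to 2.94% of the reads in the 3 lacZ libraries and NUAK548 library 1 against 17.6% to 30.0% in the other 5. S-Lap7 went the other way, from 48.4% to 50.2% in the first 4 libraries to 18.6% to 23.1% in the other 5. Mst98Ca and dj also took less in each of the other 5. The differentiation genes fzo and Mst87F took more there, as topi did. For fzo the share was 12.05% to 39.2% against 6.10% to 7.92%, and for Mst87F 11.8% to 25.3% against 7.41% to 10.3%. The Wilson intervals of the regulators' share in these 5 libraries did not overlap with those in the other 4, the highest of which ended at 8.70%.

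**Figure D2:**
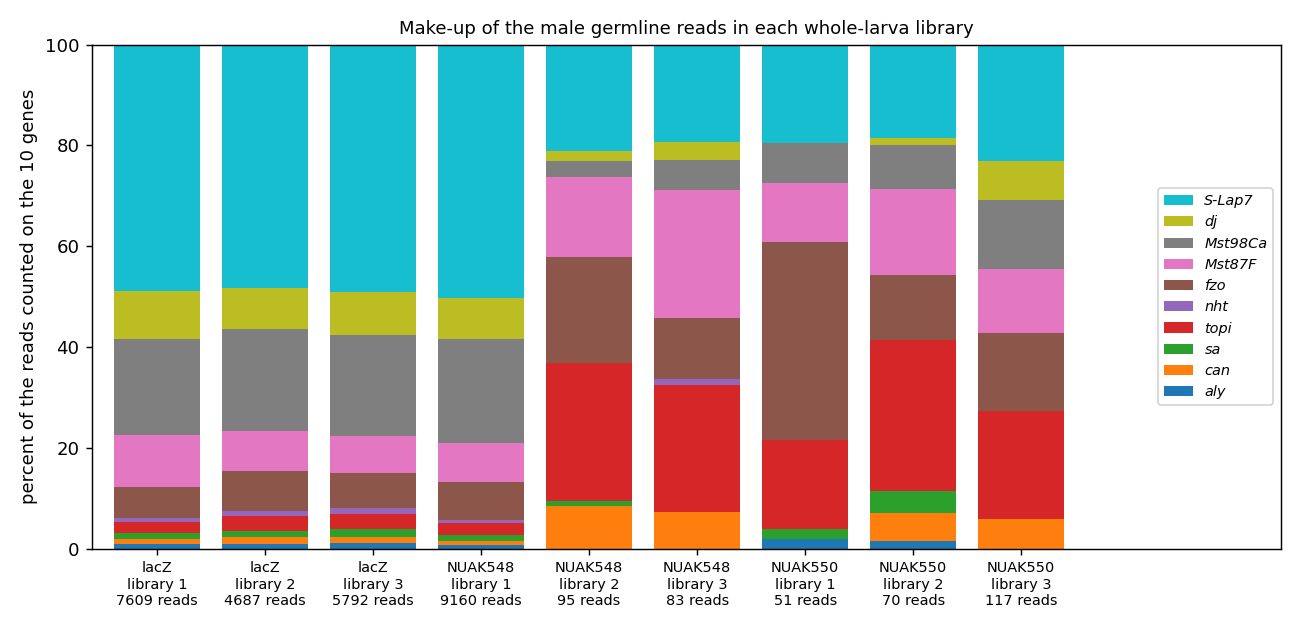
Share of the reads counted on the 10 genes that each gene took (percent, stacked to 100) in the 9 whole-larva libraries, with the number of reads under each bar. S-Lap7 took 48.4% to 50.2% in the lacZ libraries and NUAK548 library 1, and topi took 17.6% to 30.0% in the other 5.

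Tested across all genes, the outcome for NUAK550 against lacZ turned on how the spread was estimated. In the edgeR quasi-likelihood model of all 9 whole libraries, 0 of 10 genes were called at an adjusted p below 0.05, beside 0.808% of the 12255 genes tested (0.212% called lower). Adjusted p (Benjamini-Hochberg) lay between 0.095 and 0.10 for all 10 genes, and the unadjusted p of each was under 0.05, from 0.0059 to 0.027. Log2 fold changes were between -3.02 ± 0.83 (SE) for topi and -7.35 ± 2.16 for S-Lap7 among the 9 genes with NUAK550 reads, and the median over 10 genes, with nht at its bound, was -5.73, beside 0.01 over all genes tested. In this model the split NUAK548 group enters the spread shared by the 3 groups.

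Fitted on the 6 lacZ and NUAK550 libraries alone, the same test called all 10 genes lower, beside 18.9% of the 11966 genes tested (6.3% called higher). Adjusted p ran from 7.8e-06 for S-Lap7 to 0.001 for can. S-Lap7 had a log2 fold change of -7.35 ± 0.28, which is 163-fold, Mst98Ca one of -6.97 ± 0.31, and fzo one of -4.56 ± 0.32, while topi was 7.99-fold lower. The fold changes of the 9-library and 6-library models were alike and their errors were not. All 10 were also called lower by the model without NUAK548 library 1, with adjusted p from 1.7e-06 to 0.00061, beside 19.1% of genes. That model leaves out a library singled out by these same genes, so its calls are no separate support. In every NUAK550 library all 10 genes lay below every lacZ library, as did 29.3% of genes tested. DESeq2 on 9 libraries called can, sa, topi, nht and dj lower, with adjusted p from 0.00098 for dj to 0.023 for sa, beside 11.1% of genes, and gave no p for the other 5.

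For NUAK548 against lacZ the 9-library model called 0 of 10 genes (adjusted p 0.66 to 0.77, unadjusted p 0.18 to 0.49, so 0 under 0.05), beside 0.155% of genes tested, and DESeq2 called 0 of the 5 genes for which it gave an adjusted p, beside 4.06%. Log2 fold changes were small beside their errors, such as -1.19 ± 1.58 for S-Lap7 and -1.02 ± 0.77 for topi. With the replicate number as a block the median log2 fold change moved from -1.32 to -3.54. In that fit 0 of the 10 genes were called (adjusted p 0.44 to 0.46), beside 13 of 12255 genes tested. Without NUAK548 library 1, the model called all 10 genes lower, beside 16.9% of genes, with adjusted p from 5.7e-06 to 0.004. That fit leaves out the library in which these genes were high, so its calls are no separate support for a difference. In that fit the log2 fold change was -7.29 ± 0.32 for S-Lap7, -8.12 ± 0.41 for Mst98Ca and -2.70 ± 0.30 for topi. The gene aly, with 0 counts in libraries 2 and 3, was at least 36.8-fold lower than in lacZ. With all 3 libraries, the groups did not overlap for can and nht, 2 of 10 genes, beside 7.94% of genes tested.

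**Figure D3:**
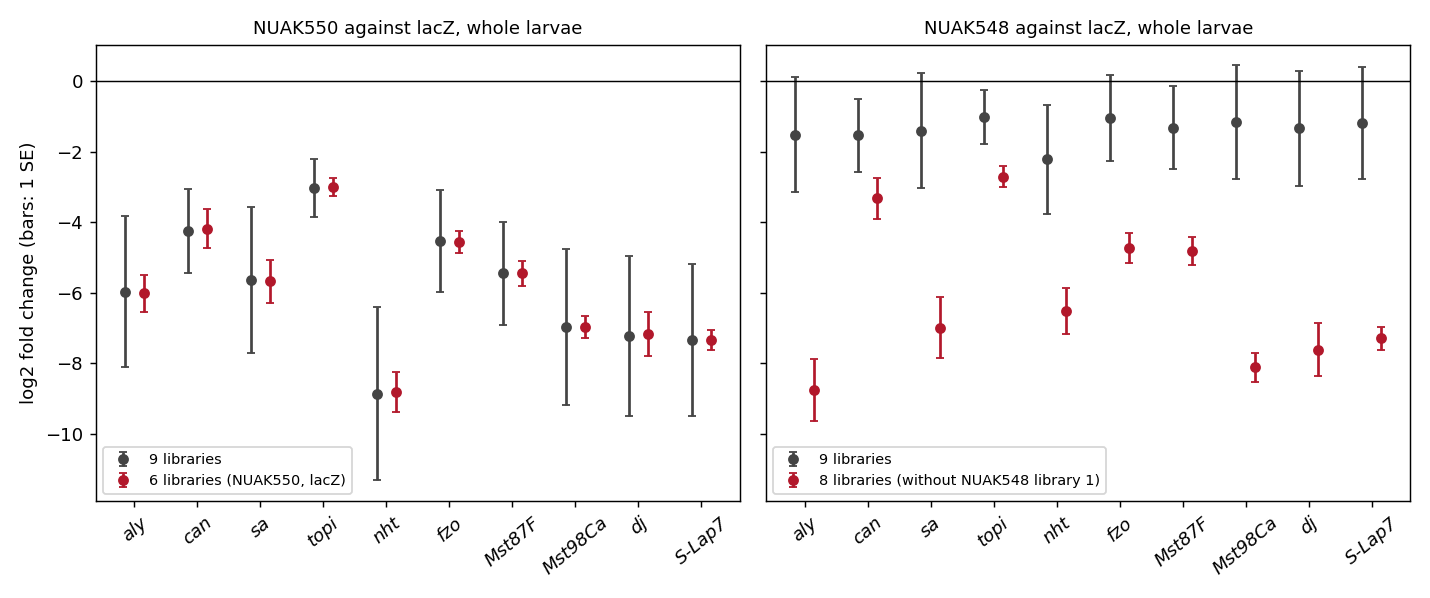
Log2 fold change against lacZ in whole larvae for each gene, with bars of 1 SE, for NUAK550 (left) and NUAK548 (right). Grey points come from the model of all 9 libraries and red points from the 6 libraries of NUAK550 and lacZ (left) or from 8 libraries without NUAK548 library 1 (right). For NUAK550 the points coincide and the bars shrink, and for NUAK548 the points themselves move down. The points of nht on the left and aly on the right rest on groups with 0 counts and are not bounds.

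The mean of both NUAK groups against lacZ had 0 of 10 genes called (adjusted p 0.15 to 0.16, unadjusted p 0.01 to 0.039), beside 0.424% of genes, and 4 called lower by DESeq2 among the 5 with an adjusted p, beside 5.29%. Without NUAK548 library 1, in which these genes were high, all 10 were called lower (adjusted p 3.8e-07 to 0.00027), beside 18.9% of genes. These calls too depend on a choice made from the tested genes. Between the NUAK groups, 0 of 10 genes were called (adjusted p 0.23 to 0.25, 8 of 10 with an unadjusted p under 0.05), beside 0.139% of genes. DESeq2 called 1 of the 5 genes with an adjusted p there, dj (adjusted p 0.014), lower in NUAK550, beside 2.72% of genes. The groups did not overlap for can and Mst87F, lower in NUAK550, beside 11.6% of genes. Without NUAK548 library 1 the log2 difference NUAK550 minus NUAK548 had a median of 0.07 over the 10 genes and adjusted p of 0.42 or more, so 0 were called, beside 0.0647% of genes.

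Other genes of the programme, taken from lists by function, were read through the 6-library test of NUAK550 against lacZ. In the 9-library model none of them was called (0 in each list), with list medians given here from that model. In the 6-library test 18.9% of all genes were called lower. Of the 7 other tMAC genes 5 fell, and their median was -1.83 in log2 fold change. The list's 3 highest in lacZ were Caf1-55, a broadly used histone chaperone subunit, at 0.12 ± 0.12 (adjusted p = 0.51), mip40 at -0.14 ± 0.15 (adjusted p = 0.55) and achi at -0.64 ± 0.18 (adjusted p = 0.038). The testis-restricted comr, named like vis after its values were seen, had 91 counts in lacZ and 0 in NUAK550, at least 29.2-fold lower. achi and vis, near-identical neighbours whose reads could be split, were both called, vis with -1.83 ± 0.18 (adjusted p = 0.00022). Of the other 2 tTAF genes, the Taf12-related rye fell by 3.90 ± 0.43 on the log2 scale (adjusted p = 0.00042) and mia, related to Taf6, was at -0.28 ± 0.27 (adjusted p = 0.50).

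Against these, the broadly used relatives of the members and their partners, such as Taf4, Taf6 and the mitofusin Marf, had 0 of 7 genes lower and 1 higher (beside 6.3% of all genes), Marf at 0.75 ± 0.21 (adjusted p = 0.039), with a list median of 0.18. The spermatocyte chromatin genes, testis bromodomain genes and the zinc-finger gene kmg among them, had 4 of 4 lower and a median of -6.83. tBRD-2 was at 9.57, 9.69 and 11.5 CPM in lacZ, at 9.47, 0 and 0.0479 CPM in NUAK548 and at 0, 0 and 0.116 CPM in NUAK550, and kmg was 22.6-fold lower (adjusted p = 0.00015). Among genes of the meiotic divisions 4 of 6 fell, with a median of -1.50. The meiotic phosphatase twe was at 11.6, 12.1 and 12.2 CPM in lacZ and at 2.76, 3.02 and 2.82 CPM in NUAK550, the RNA-binding gene bol fell by 1.02 ± 0.14 (adjusted p = 0.0014), and CycB, used in all dividing cells, was at -0.18 ± 0.13 (adjusted p = 0.38).

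Relatives and neighbours in function of the differentiation members were called lower throughout. All 7 other S-Lap family genes fell (median -7.21), as did 5 of 5 other sperm tail repeat genes of the Mst family (median -6.83), 7 of 7 sperm chromatin genes (median -7.94) and 8 of 8 other spermatid genes (median -6.12). S-Lap1 was at 225, 171 and 191 CPM in lacZ and at 1.06, 1.20 and 1.81 CPM in NUAK550, and the protamine-like Mst77F was at 63.0, 40.2 and 55.3 CPM and at 0.235, 0.479 and 0.656 CPM. Of 17 cup and comet genes, a class known for transcription after meiosis, 15 passed the filter on low counts and all 15 fell (median -6.32). The share over all genes called lower was 18.9%. Genes with few reads in NUAK550 passed that filter on their lacZ reads, so lower was the only call open to them. Of the 15, 1 had 0 counts in NUAK550. The highest of the 15, m-cup, fell least among its list's 3 named genes, by 0.49 ± 0.14 (adjusted p = 0.037), while soti fell by 7.18 ± 0.55 (adjusted p = 7.4e-05) and boly by 7.53 ± 0.39 (adjusted p = 1.7e-05). Several of these families hold close paralogues, so the level of a single copy is less certain than that of its family.

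Markers of other cells and of sex were read in the same libraries. In the 6-library test 18.9% of all genes were called lower and 6.3% higher. Among early germline markers, 5 of 8 passed the filter and 3 fell (bgcn and, named after their values were seen, aub and bam), bgcn from 5.78, 6.31 and 6.87 CPM to 0.411, 0.527 and 0.270 CPM. The summed level of the list was 42.6 to 84.6 CPM in lacZ, 56.2 to 72.4 CPM in NUAK548 and 51.9 to 61.3 CPM in NUAK550, most of it from ovo, which other tissues also express. None of 6 markers of gonad soma was called in either direction, with sums of 213 to 299 CPM in lacZ and 238 to 272 CPM in NUAK550, and these markers too are used outside the gonad. Of 8 muscle markers, 6 were called higher in NUAK550, with sums of 1768 to 7684 CPM in lacZ and 18280 to 22330 CPM in NUAK550. In the NUAK548 libraries the sums were 5602, 5701 and 1803 CPM, within the lacZ range also in libraries 2 and 3, and the part of muscle RNA in the NUAK550 result was not tested.

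Male markers, a list that includes testis genes, moved with the 10 genes library by library. Of 14 such markers 10 passed the filter and all 10 were lower in NUAK550 in the 6-library test, beside 18.9% of genes tested. Of these 10, 4 had 0 counts in NUAK550 and passed the filter on lacZ reads alone, so lower was the only call open to them. The median was -5.35 in the 9-library model over 11 genes tested, with 5 of them at bounds. The summed level of the 14 markers was 274 to 310 CPM in lacZ, 338, 22.6 and 20.1 CPM in the NUAK548 libraries and 24.2 to 27.7 CPM in NUAK550. In all NUAK550 libraries 8 of 14 had 0 counts, against 1 of 14 over the lacZ group and 1 of 14 over NUAK548. Only 5 of these 8 were among the 11 tested, as the others failed the filter on low counts. lncRNA:roX1, an RNA of the male X-chromosome dosage compensation complex, was at 189, 162 and 188 CPM in lacZ, at 181, 21.5 and 19.3 CPM in NUAK548 and at 26.8, 24.3 and 22.9 CPM in NUAK550. Its partner lncRNA:roX2 had 340 counts in the lacZ group, 95 counts in NUAK548 and 0 counts in NUAK550. The testis tubulin betaTub85D was at 103, 93.8 and 100 CPM, at 130, 0.845 and 0.671 CPM and at 0.646, 0.911 and 1.16 CPM. In lacZ most of the summed level came from lncRNA:roX1 (mean 179 CPM) and betaTub85D (mean 98.9 CPM). As betaTub85D is a testis gene, the list is not a measure of sex apart from the testis. The part of the male markers in the result was not tested.

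**Figure D4:**
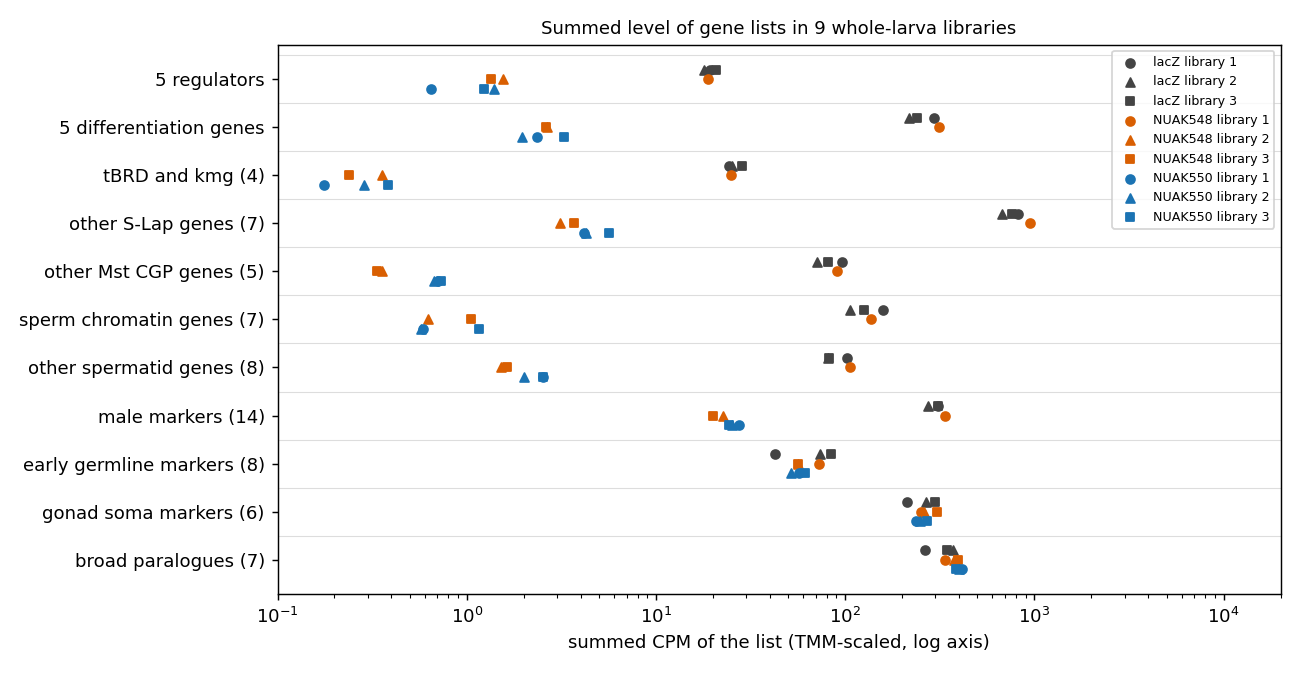
Summed level of selected gene lists (CPM after TMM scaling, log axis) in the 9 whole-larva libraries, with the number of genes in brackets. Lists not drawn include the other tMAC, other tTAF, meiotic division and cup and comet genes. Male markers, at 20.1 to 27.7 CPM in NUAK548 libraries 2 and 3 and NUAK550 against 274 to 338 CPM in the other 4, separate the libraries as the regulators and differentiation genes do, and the broad paralogues do not.

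Across the 9 whole libraries each member followed the mean of the other 9, with Pearson's r of log2(CPM + 0.5) from 0.982 for can to 1.0 for S-Lap7. The genes outside the lists with the pattern most like the members' mean were CG5043 (r = 0.9997), Fum3 (0.9996), azot, CG31206, CG18335 and CG6893 (0.9995 each), and CG6576 and CG18518 (0.9994 each). CG5043 was at 29.6, 21.4 and 24.4 CPM in lacZ, at 28.6, 0.0445 and 0 CPM in NUAK548 and at 0, 0.0479 and 0.0771 CPM in NUAK550. Of 12341 genes compared, 1958 (15.9%) had an r over 0.9 and 1067 one over 0.99. These values describe 9 libraries that fall in separate groups of 4 and 5, and r here measures the split between them.

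Muscle carcass held little of this RNA in any genotype. In lacZ the 10 genes summed to 7.12, 6.56 and 6.78 CPM in carcass, in NUAK548 to 8.80, 8.62 and 9.80 CPM and in NUAK550 to 7.41, 8.27 and 6.09 CPM. Between the lacZ preparations, edgeR on all 18 libraries called 10 of 10 genes lower in carcass, beside 37.1% of genes, with adjusted p from 0.0013 for can to 0.021 for fzo. For all 10 genes the lacZ carcass libraries lay below every lacZ whole library, as for 40.1% of genes. Log2 fold changes ran from -2.95 ± 1.00 for fzo to -6.69 ± 1.57 for S-Lap7 among the 8 genes with reads in lacZ carcass, while can and nht had 0 counts there and were at least 45.03-fold and 36.6-fold lower. Leaving out lacZ carcass library 1, 2 or 3 took the call from fzo (adjusted p = 0.059), from sa and fzo (0.066 and 0.067) and from sa (0.062).

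Between the lacZ preparations, 7 of the 11 male markers tested were called lower in carcass, beside 37.1% of genes. The testis gene betaTub85D was among them, and 4 of the 11 had 0 counts in lacZ carcass. One marker, lncRNA:roX1, was called higher, as were 2789 of 12429 genes. lncRNA:roX1 was at 494, 504 and 559 CPM in lacZ carcass, at 338, 261 and 136 CPM in NUAK548 and at 61.6, 66.9 and 61.8 CPM in NUAK550, while S-Lap7 was at 1.27 ± 0.23, 1.13 ± 0.66 and 1.01 ± 0.20 CPM in the same groups. betaTub85D was likewise low in every carcass group, at 0.827 ± 0.63, 0.614 ± 0.38 and 0.623 ± 0.10 CPM. In NUAK550 whole larvae S-Lap7 stood at 0.75 ± 0.25 CPM.

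Only 5 of the 10 genes (topi, fzo, Mst87F, Mst98Ca and S-Lap7) passed the filter on low counts in carcass, and 0 were called in NUAK550 against lacZ (adjusted p 0.29 to 0.75, none with an unadjusted p under 0.05, DESeq2 0), beside 12.6% of genes tested. NUAK548 against lacZ also had 0 called (adjusted p 0.10 to 0.85, DESeq2 0), beside 5.56% of genes, and fzo alone had an unadjusted p under 0.05 there, at 0.011. In carcass fzo was at 2.37, 1.98 and 2.91 CPM in lacZ, at 5.23, 3.05 and 5.22 CPM in NUAK548 and at 3.46, 3.92 and 2.92 CPM in NUAK550. For topi every NUAK550 carcass library lay below lacZ, beside 15.3% of genes. For fzo both NUAK groups were above lacZ in every library, as were 14.4% (NUAK548) and 19.4% (NUAK550) of genes, with log2 fold changes of 0.89 ± 0.28 and 0.49 ± 0.28. Without TMM scaling, both NUAK groups overlapped with lacZ for fzo, with a lowest library of 2.39 CPM in NUAK548 and 2.16 CPM in NUAK550 against a highest of 2.54 CPM in lacZ. Its host cnc, on the same strand, stood at 684, 584 and 738 CPM in lacZ carcass, at 987, 815 and 748 CPM in NUAK548 and at 654, 644 and 660 CPM in NUAK550, and the part of host reads in the fzo counts was not tested.

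**Figure D5:**
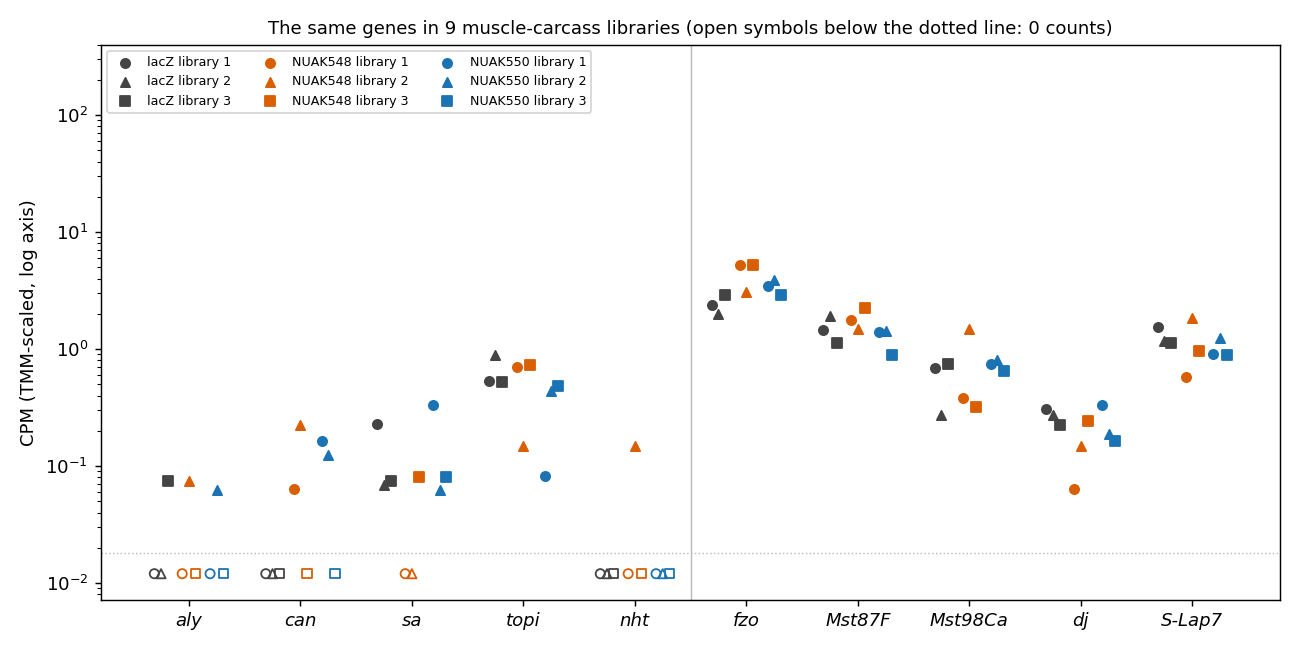
Level of each gene (CPM after TMM scaling, log axis as in the plot for whole larvae) in the 9 muscle-carcass libraries, drawn with the same symbols. The values of the 10 genes end at 5.23 CPM (fzo, NUAK548 library 1), and nht had reads in 1 carcass library.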

How the data were processed

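The authors deposited 1 file of raw gene counts per library, on BDGP6. Per the submitters' processing notes, reads went through Trimmomatic 0.36, STAR 2.5.2b and featureCounts of Subread 1.5.2. The authors' normalized tables were not used. Symbols were matched to the counted identifiers through the reference annotation. The 10 members and 18 further lists (141 symbols, 2 without a match) were chosen with earlier results of these data known. Levels are TMM-scaled CPM, computed over 18 libraries; TMM lowered whole-larva CPM by 12.3% to 29.2% and raised carcass CPM by 8.99% to 37.7%. Counts were tested with edgeR 4.0.16 in R 4.3.3 (filterByExpr with a minimum count of 10, TMM, quasi-likelihood F test, Benjamini-Hochberg over all genes tested, two-sided), with 9 libraries per preparation in 3 groups, or 18 libraries for carcass against whole. SEs were derived from each fold change and F value. The steps were tested on simulated data. Of each list, the 3 genes highest in whole lacZ larvae could be named, and the 8 genes most like the members. Folds against 0 counts used a floor of 3 counts over the group. Alternatives were DESeq2 1.42.0, its size factors, no filter, no TMM (chosen after seeing the data), 6-library fits, the replicate number as a block, and leaving out each library. Deviations from group means showed same-numbered pairing for lacZ and NUAK548 whole larvae (r = 0.15, 0.40 and 0.35), a pairing the labels do not state. With libraries numbered by the labels, no other comparison showed it. No library was a copy of another (lowest chi-square over degrees of freedom 40.0). Headers of the whole NUAK550 counts carry library numbers that differ from the labels, and the labels were followed, also in the pairing check and the block. By header, NUAK550 libraries 1 and 2 carry the numbers 2 and 3. Matched that way, r was 0.25 and -0.06 with lacZ and 0.19 and 0.05 with NUAK548. Pairing of whole NUAK550 is thus not settled by the check.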

Additional observations from a re-analysis of the deposited data

Results flagged for a closer look

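For the mitofusin gene fzo, the NUAK550 libraries lay on opposite sides of lacZ in the preparations. Against lacZ, every NUAK550 library was lower in whole larvae (0.767 ± 0.38 against 18.7 ± 0.48 CPM) and higher in carcass (3.43 ± 0.50 against 2.42 ± 0.46 CPM). In whole larvae 29.3% of genes tested lay below lacZ in every NUAK550 library. There edgeR did not call fzo on 9 libraries (adjusted p = 0.095) and called it on the 6 libraries of both groups (adjusted p = 5.1e-05). The carcass value was not called (log2 fold change 0.49 ± 0.28, adjusted p = 0.29 by edgeR), and 19.4% of genes tested lay above lacZ in every NUAK550 carcass library. The difference between the preparations was not tested. Without TMM scaling the carcass libraries of the groups overlapped, at 2.51, 3.19 and 2.16 CPM in NUAK550 and 2.00, 1.67 and 2.54 CPM in lacZ.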

How the results depend on the processing

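The count of called genes among the 10 depended on the NUAK548 whole group and on the method, and the share over all genes moved too. For NUAK550 against lacZ it was 0 with edgeR on all 9 libraries, beside 0.808% of genes. It was 5 with DESeq2 on the same 9 libraries, beside 11.1% called lower. With edgeR on the 6 libraries of both groups it was 10, beside 18.9% called lower. For the mean of the NUAK groups it was 0, beside 0.424% of genes, and 4 with DESeq2, beside 5.29% called lower. For NUAK550 against NUAK548 it was 0, beside 0.139%, and 1 with DESeq2, beside 2.72% called lower. DESeq2 gave an adjusted p for 5 of the 10 genes in each. Leaving out single libraries gave 0 to 10 called genes for NUAK550, for NUAK548 and for their mean against lacZ. The 10 arose in each case without NUAK548 library 1, beside 19.1%, 16.9% and 18.9% of genes called lower. That library was singled out by the 10 genes themselves. For lacZ carcass against whole, leaving out single libraries gave 8 to 10. The 8 arose without lacZ carcass library 2, beside 3598 of 12652 genes called lower. Without NUAK548 library 1 the log2 difference NUAK550 minus NUAK548 changed sign for 5 genes, none of them called, and its range over all left-out libraries was -5.05 to 2.74 for aly, -5.44 to 1.32 for sa, -4.06 to 0.18 for fzo, -6.40 to 1.15 for Mst98Ca and -8.15 to 0.44 for dj. In carcass NUAK548 against lacZ, uncalled values changed sign for topi (0.01 without lacZ library 2 and 0.12 without NUAK548 library 2, range -0.60 to 0.12), Mst98Ca (-0.67 without NUAK548 library 2, range up to 0.68) and S-Lap7 (0.14 without NUAK548 library 1, range from -0.73). The replicate block called 0 of the 10 genes in each NUAK comparison, with adjusted p of 0.08 to 0.10 for whole NUAK550 against lacZ. Over all genes it called 10 to 91 of 12255 in the whole-larva comparisons. In carcass it called 572 of 9821 for NUAK550 and 222 for NUAK548. For lacZ carcass against whole the block called all 10 lower, beside 4508 of 12429 genes. In whole larvae the block moved the median of the 10 genes for NUAK548 against lacZ from -1.32 to -3.54. It changed no call in any comparison. Outside lacZ and NUAK548 whole larvae not every pair with the same label number reached an r over 0.1 (lowest -0.04 in whole larvae and -0.39 in carcass). Without TMM, 11 group levels of the members moved by more than 1 SD and no call changed. In carcass, 5 of 10 genes had too few reads for a test. The cause of these shifts was not tested.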
